A study of Mus musculus with 9 samples.

Results

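The 10 genes described here belong to the pathway that displays peptides on MHC class I, and were measured in mouse bone marrow macrophages grown on metal implant surfaces. They are the heavy chains H2-K1 and H2-D1, their light chain B2m, the peptide transporter subunits Tap1 and Tap2, the loading factor Tapbp, the inducible proteasome subunits Psmb8, Psmb9 and Psmb10, and the transactivator Nlrc5. The set was chosen by gene function, and all 10 were found among the 54532 genes of the deposited table. All 10 also passed the expression filter, at least 1 FPKM in at least 3 libraries, as did 10858 genes in all. FPKM divides a gene's read count by its length and by a factor for each library.

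The cells were wild-type primary macrophages cultured for 48 h on 1 of 3 materials, with 3 libraries each. Ta0 is the metallic glass Zr61Cu25Al14 and Ta3 is the metallic glass Zr58Cu25Al14Ta3, which holds tantalum in place of some of the zirconium. Both are alloys that lack a crystal lattice. The reference material was cp titanium (cpTi), and with no other surface in the design a lower level on a glass and a higher level on titanium cannot be told apart. The mouse strain is not given in the sources used here, and class I genes vary between strains. Nor do the labels say whether libraries came from separate animals or cultures, so p-values reflect only how these libraries vary, and that variation may be technical. They also give the tissue as a xenograft, a word not used here. The glass columns of the table were matched to the 2 glasses by their metal, so the opposite reading would exchange all Ta0 and Ta3 results.

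MHC class I molecules carry peptides cut inside the cell to its surface, where CD8 T cells read them. The proteasome makes the peptides, the TAP transporter pumps them into the endoplasmic reticulum, and tapasin, the product of Tapbp, holds an empty class I molecule beside the transporter until a peptide is loaded. Interferon gamma makes cells replace the constitutive catalytic subunits Psmb6, Psmb7 and Psmb5 by Psmb9, Psmb10 and Psmb8, which forms the immunoproteasome. Nlrc5 is an interferon-inducible protein that acts at class I promoters, together with the RFX complex, and raises transcription of heavy chains, B2m, Tap1 and Psmb9. NF-kB and the IRF proteins act there as well. Macrophages express this pathway at rest and raise it during inflammation.

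Promoter DNA is shown for 3 genes of the class I molecule itself, because the 2 heavy chains have near-identical control regions and B2m, their light chain, has another. RefSeq promoter windows (build GRCm38.p6), which run 250 bases before to 50 after each start, were given for 8 of the 10 genes. They were H2-K1, H2-D1, B2m, Tap1, Tapbp, Psmb8, Psmb9 and Psmb10, and H2-K1 had a window for each of 2 starts. Tap2 and Nlrc5 were the other 2. Capitals mark an NF-kB motif (GGGA, any 4 bases, CC, on either strand) and, in B2m, first an interferon response element motif (GAAA, any 2 bases, GAAA). Only exact patterns were searched, so an element with another spacing or spelling stays in lower case. Unmarked bases in H2-K1 and H2-D1 therefore do not show that an interferon element is absent there. Each stretch is 100 bases long and reads toward its gene. They lie at chr17:34000379-34000478 on the minus strand (H2-K1), at chr17:35262903-35263002 on the plus strand (H2-D1) and at chr2:122147528-122147627 on the plus strand (B2m).
H2-K1: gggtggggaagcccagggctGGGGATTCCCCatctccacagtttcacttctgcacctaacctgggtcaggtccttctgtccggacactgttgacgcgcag
H2-D1: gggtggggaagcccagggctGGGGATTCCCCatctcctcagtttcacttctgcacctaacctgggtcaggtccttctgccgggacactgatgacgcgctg
B2m: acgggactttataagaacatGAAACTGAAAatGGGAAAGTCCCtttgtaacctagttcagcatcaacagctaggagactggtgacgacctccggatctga
The stretches of H2-K1 and H2-D1 carried the same base at 95 of 100 positions. In both, the NF-kB motif read on each strand, and the overlapping matches are written as 1 run. In B2m, too, it read on both strands, from -127 to -117, beside the interferon element from -139 to -130 (bases from the start, with the first transcribed base as 0). Of 32851 RefSeq promoter windows of the same length, 20.7% held the NF-kB motif and 3.44% held the interferon element.

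Tap1 and Psmb9 lie head to head, and their shared control region is shown because both genes are read out here. Their RefSeq starts leave 225 bases between them, and the stretch from the start of Psmb9 to the start of Tap1 lies at chr17:34187330-34187556, printed on the plus strand. Capitals mark the first transcribed base of each gene, with Psmb9 running leftward from the first and Tap1 rightward from the last.
Psmb9 start to Tap1 start: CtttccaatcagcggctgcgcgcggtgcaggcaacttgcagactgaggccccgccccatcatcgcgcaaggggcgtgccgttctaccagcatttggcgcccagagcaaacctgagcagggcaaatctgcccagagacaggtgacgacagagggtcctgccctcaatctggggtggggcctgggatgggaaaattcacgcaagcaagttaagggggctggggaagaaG
Neither motif, as spelled above, occurred in the windows of Tap1 and Psmb9, which share 275 bases.

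In the annotation of the deposited table (GRCm38), 7 of the 10 genes lie on chromosome 17, in or near the MHC. There, Tapbp spans 33915899 to 33929288 (+), H2-K1 33996017 to 34000333 (-), Psmb9 34181988 to 34187764 (-), Tap1 34187553 to 34197225 (+), Psmb8 34197721 to 34201454 (+), Tap2 34203527 to 34216321 (+) and H2-D1 35262730 to 35267499 (+). B2m spans 122147686 to 122153083 (+) on chromosome 2. Nlrc5 spans 94434356 to 94527272 (+) and Psmb10 105935735 to 105938444 (-) on chromosome 8. Psmb9 and Tap1 overlap by 212 bases on opposite strands, B2m lies within Patl2 on the other strand (mean 0.346 FPKM), and Tapbp overlaps the same-strand gene Zbtb22 by 3421 bases (mean 15.9 FPKM). The strand setting of the counting is not given in the sources used here, so reads in such overlaps could not be assigned with certainty. H2-K1 and H2-D1 are also close copies, between which reads may be split.

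Whole reads rebuilt from the FPKM totalled 15517877 to 18689963 per library. The 6 macrophage markers (Adgre1, Csf1r, Cd68, Itgam, Mertk and Lyz2) all exceeded 1 FPKM in every library. They summed, mostly through Lyz2, to 23260 to 40180 FPKM on Ta0 and 10900 to 39970 on Ta3, against 16730 to 29270 on cpTi. Adgre1 alone had 78.1 to 97.6 FPKM on Ta0 and 78.6 to 93.3 on Ta3, against 148.5 to 162.5 on cpTi. Cd68 ran the other way on Ta3, with 1166 to 1672 FPKM there and 1020 to 1109 on Ta0, against 781 to 1078 on cpTi. Csf1r lay lower in every Ta0 library than in every cpTi library, and overlapped between Ta3 and cpTi. Itgam, Mertk and Lyz2 overlapped between each glass and cpTi. No T or NK cell marker of 5 reached 1 FPKM in 3 libraries, and Ly6g of neutrophils was listed at 0 in all 9. Monocyte markers (Ly6c2 and Ccr2) summed, mostly through Ly6c2, to 10.98 to 18.0 FPKM on Ta0 and 5.24 to 14.5 on Ta3, against 20.1 to 75.01 on cpTi. Ccr2 did not follow that sum, with 0.880 to 1.63 FPKM on Ta0 and 0.857 to 1.04 on Ta3, against 0.709 to 0.949 on cpTi. Dendritic cell markers (5 genes, led by Itgax, with Flt3, Zbtb46 and Xcr1 at or under 0.222 FPKM) summed to 17.4 to 22.3 FPKM on Ta0 and 18.2 to 34.5 on Ta3, against 7.60 to 16.6 on cpTi. Ccr7 did not follow that sum, with 2.28 to 3.64 FPKM on Ta0 and 2.65 to 4.66 on Ta3, against 3.84 to 4.26 on cpTi. Neutrophil markers (5 genes, mostly S100a8) summed to 91.9 to 388 FPKM on Ta0, 10.2 to 381 on Ta3 and 61.4 to 268 on cpTi. Summed B cell markers (3 genes) stayed at or under 4.02 FPKM, and erythroid markers (Hba-a1 and Hbb-bs) reached 11.8 on Ta0 and 35.3 on Ta3, against at most 0.145 on cpTi. Fibroblast markers (4 genes) summed to 28.7 to 29.3 FPKM on Ta0 and 32.4 to 41.8 on Ta3, against 26.7 to 45.7 on cpTi. The part of these other cells in the results below was not tested, and in bulk RNA fewer cells of a type and less RNA per cell cannot be told apart.

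Per unit of gene length, B2m was the most abundant of the 10, with a mean over the 9 libraries of 9056 FPKM. H2-D1 followed at 2467 FPKM and H2-K1 at 824 FPKM, and this order held in all 9 libraries. Among the immunoproteasome subunits, Psmb10 averaged 95.9 FPKM and Psmb8 79.7 FPKM. Psmb10 lay above Psmb8 in all 9 libraries, by only 1.203 times on average. Tapbp averaged 54.2 FPKM and lay below Psmb8 in 7 of 9 libraries, so this pair of neighbours was not separated. Psmb9 averaged 17.4 FPKM, and lay above Tap1 (8.32 FPKM) in 7 of 9 libraries. Tap1 and Tap2 (8.06 FPKM) did not differ beyond their spread, with Tap1 the higher in 4 of 9. Nlrc5 was the lowest at 2.07 FPKM, which rests on 106 to 726 reads per library, while B2m rests on 50076 to 216326.

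**Figure D1:**
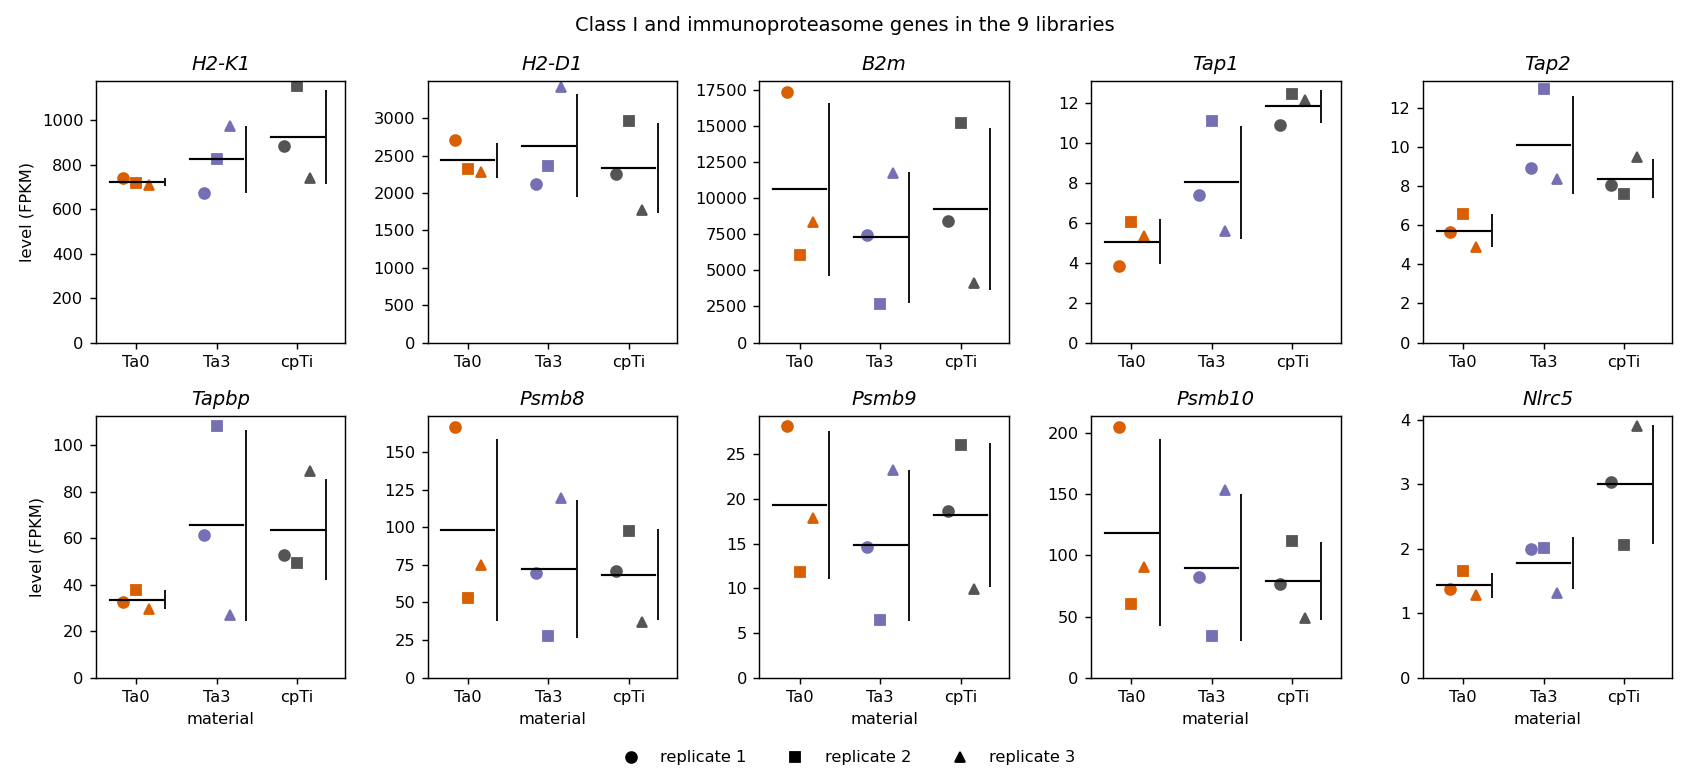
Level of each gene in FPKM (linear axis from 0) in the 3 libraries of Ta0, Ta3 and cpTi. Points are libraries, horizontal lines group means and vertical lines 1 SD to each side. Tap1, Tap2, Tapbp and Nlrc5 lay lower in all 3 Ta0 libraries than in any cpTi library, while B2m and the Psmb genes spread widely within each material.

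Differences were tested by limma on log2(FPKM + 1) over all 10858 genes, with Benjamini-Hochberg adjustment over all of them and a call at an adjusted p under 0.05. On Ta0 against cpTi, 0 of the 10 genes were called, beside 0.424% of all genes tested. On Ta3 against cpTi, 0 of 10 were called beside 0.479% of all genes, and for both glasses together against cpTi 0 of 10 beside 0.728%. Between Ta3 and Ta0, 0 of 10 were called, with 0% of all genes. By unadjusted p under 0.05, the counts were 3 of 10 on Ta0 (5.5% of all genes), 1 of 10 on Ta3 (6.99%), 2 of 10 on both glasses (6.53%) and 1 of 10 between Ta3 and Ta0 (4.25%). A voom fit of the rebuilt reads in limma also called 0 of 10 in each comparison. The median log2 fold change of the 10 genes was -0.12 on Ta0, -0.14 on Ta3 and -0.13 on both glasses, against cpTi, and 0.13 for Ta3 over Ta0. The same medians over all tested genes were -0.0012, 0.02, 0.01 and -0.04. Scaling each library to a common FPKM total moved the median of all genes to -0.48 on Ta0, and scaling to total reads moved it to -0.29. Under both, the fold changes of H2-D1, B2m and Psmb9 on Ta0, which were above 0 with the deposited FPKM, were below 0.

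A simpler description is whether the libraries of 2 materials overlap at all. Of the 10 genes, 4 were lower in every Ta0 library than in every cpTi library (Tap1, Tap2, Tapbp and Nlrc5), beside 10.2% of all tested genes. On Ta3 only Nlrc5 of the 10 was lower in every library, beside 8.22% of all genes. For the 6 glass libraries against cpTi, again 1 of 10 did so (Nlrc5), beside 3.67%. Between the glasses, 1 of 10 (Tap2) was higher in every Ta3 library than in every Ta0 library, beside 4.1% of all genes. Ta0 and Ta3 were compared with the same cpTi libraries, so their values against cpTi are not independent. Without Ta3 replicate 3, 4 of 10 genes (Tap1, Tap2, Tapbp and Nlrc5) were higher in both remaining Ta3 libraries than in every Ta0 library, beside 26.2% of all genes. Tap1 joined Nlrc5 as lower on Ta3, which made 2 of 10, without Ta3 replicate 2 (beside 15.3% of all genes) or without cpTi replicate 1 (beside 8.92%).

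**Figure D2:**
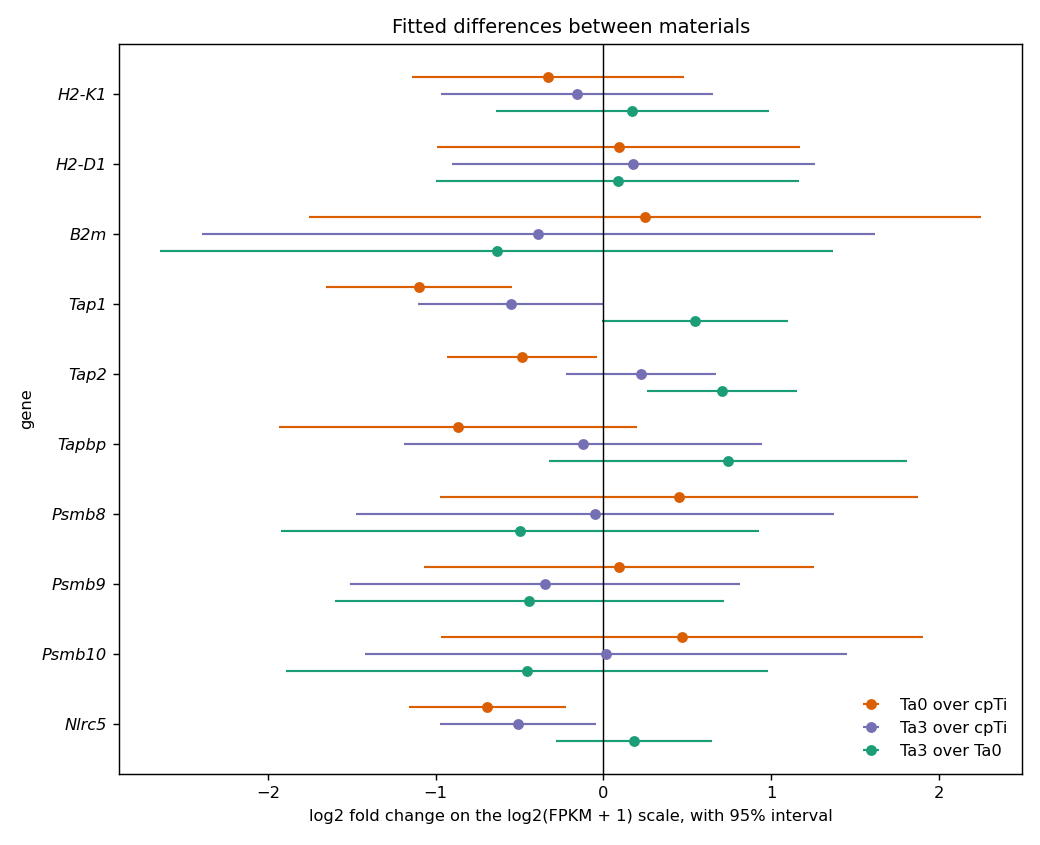
Log2 fold change of each gene on the log2(FPKM + 1) scale, with its 95% interval from limma, for Ta0 over cpTi, Ta3 over cpTi and Ta3 over Ta0. Intervals are narrowest for Tap2, Nlrc5 and Tap1 and widest for B2m, and no difference passed the adjusted threshold.

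The class I molecule itself showed no detectable difference between materials. H2-K1, a classical heavy chain that presents peptide to CD8 T cells, had 742, 718 and 707 FPKM on Ta0 and 672, 827 and 973 FPKM on Ta3, against 884, 1153 and 738 FPKM on cpTi. The Ta0 libraries lay close together (SD 17.9 FPKM) and near the lowest cpTi library, and the groups overlapped. After scaling to a common FPKM total or to total reads, H2-K1 was lower in every Ta0 library than in every cpTi library. So were 12.2% and 11.8% of all tested genes under these scalings. The log2 fold change of H2-K1 on Ta0 was -0.33 ± 0.36 (SE, 95% interval -1.14 to 0.48, limma adjusted p = 0.754), and on Ta3 -0.16 ± 0.36 (adjusted p = 0.965).

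H2-D1, the other classical heavy chain, had 2707, 2324 and 2281 FPKM on Ta0 and 2123, 2365 and 3412 FPKM on Ta3, against 2257, 2967 and 1769 FPKM on cpTi. All 3 groups overlapped, and the lowest library was on cpTi. Its log2 fold change against cpTi was 0.09 ± 0.47 on Ta0 (interval -0.99 to 1.17) and 0.18 ± 0.47 on Ta3 (interval -0.90 to 1.26, limma adjusted p = 0.966). Within a library, the ratio of H2-D1 to H2-K1 was 3.65, 3.24 and 3.22 on Ta0 and 3.16, 2.86 and 3.51 on Ta3, against 2.553, 2.574 and 2.395 on cpTi. This ratio, which was looked at after the values were seen and has no test, was higher in each glass library than in any cpTi library. Reads shared between the copies would enter it.

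B2m, the light chain that pairs with class I heavy chains, had 17395, 6070 and 8380 FPKM on Ta0 and 7449, 2699 and 11738 FPKM on Ta3, against 8405, 15251 and 4117 FPKM on cpTi. The spread was 6.45-fold between the highest and the lowest library, and it lay within the materials. Its log2 fold change was 0.25 ± 0.88 on Ta0 over cpTi (interval -1.76 to 2.25) and -0.39 ± 0.88 on Ta3 over cpTi (interval -2.39 to 1.62). Intervals this wide set little limit on a difference in B2m.

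Tap1, Tap2 and Tapbp were lower in every Ta0 library than in every cpTi library, without passing the adjusted threshold. Tap1, which with Tap2 forms the transporter, had 3.82, 6.02 and 5.35 FPKM on Ta0 and 7.40, 11.1 and 5.59 FPKM on Ta3, against 10.9, 12.5 and 12.2 FPKM on cpTi. Every Ta0 library lay below every cpTi library, and 1 of 3 Ta3 libraries reached into the cpTi range. The mean was 5.07 ± 1.13 FPKM on Ta0 and 8.03 ± 2.81 FPKM on Ta3, against 11.9 ± 0.825 FPKM on cpTi (SD, n = 3 each). The log2 fold change against cpTi was -1.10 ± 0.24 on Ta0 (interval -1.65 to -0.55, unadjusted p = 0.0016, adjusted p = 0.178, limma). On Ta3 it was -0.55 ± 0.24 (adjusted p = 0.714) and on both glasses -0.83 ± 0.21 (adjusted p = 0.221). With each library's slope on gene length as a covariate, limma called it lower on Ta0 (-0.85 ± 0.15, adjusted p = 0.018) and on both glasses (-0.66 ± 0.12, adjusted p = 0.015). That setting called 246 of all 10858 genes on Ta0 and 476 on both glasses, against 46 and 79 in the main fit.

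Tap2 had 5.65, 6.58 and 4.90 FPKM on Ta0 and 8.94, 12.97 and 8.36 FPKM on Ta3, against 8.06, 7.60 and 9.49 FPKM on cpTi. Ta0 lay below the other materials in every library, while Ta3 and cpTi overlapped. The log2 fold change on Ta0 over cpTi was -0.49 ± 0.20 (unadjusted p = 0.0362, adjusted p = 0.750, limma), and on Ta3 over cpTi it was 0.22 ± 0.20 (adjusted p = 0.937). Between the glasses, Ta3 over Ta0 gave 0.71 ± 0.20 (interval 0.26 to 1.15, unadjusted p = 0.0060, adjusted p = 0.846, limma). After scaling libraries to a common FPKM total, or to their total reads, Ta3 and Ta0 overlapped for Tap2.

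Tapbp had 32.8, 37.9 and 29.7 FPKM on Ta0 and 61.4, 108 and 26.8 FPKM on Ta3, against 52.8, 49.4 and 88.9 FPKM on cpTi. Ta0 was low in all 3 libraries, and Ta3 held both the highest and the lowest of the 9. The log2 fold change of Tapbp was -0.86 ± 0.47 on Ta0 over cpTi (interval -1.93 to 0.20, adjusted p = 0.750, limma), -0.12 ± 0.47 on Ta3 over cpTi and 0.74 ± 0.47 on Ta3 over Ta0 (adjusted p = 0.846). Without Ta3 replicate 3, the log2 fold change of Tapbp on Ta3 over cpTi was 0.40. On Ta3 over Ta0 it was 0.28 without Ta3 replicate 2 and 1.27 without Ta3 replicate 3.

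Nlrc5 had 1.37, 1.65 and 1.28 FPKM on Ta0 and 2.00, 2.01 and 1.31 FPKM on Ta3, against 3.03, 2.05 and 3.90 FPKM on cpTi. All 6 glass libraries lay below all 3 cpTi libraries, but the highest Ta3 library at 2.01 FPKM nearly met the lowest cpTi library at 2.05 FPKM. The mean was 1.43 ± 0.196 FPKM on Ta0 and 1.77 ± 0.399 FPKM on Ta3, against 2.99 ± 0.927 FPKM on cpTi (SD, n = 3 each). The log2 fold change was -0.69 ± 0.20 on Ta0 (adjusted p = 0.447), -0.51 ± 0.20 on Ta3 (adjusted p = 0.629) and -0.60 ± 0.18 on both glasses (interval -1.004 to -0.197, unadjusted p = 0.0086, adjusted p = 0.330), all over cpTi by limma. When libraries were scaled to a common FPKM total or to total reads, Ta3 and cpTi overlapped for Nlrc5.

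The immunoproteasome subunits varied together from library to library and overlapped between all materials. Psmb8, the inducible chymotrypsin-like subunit, had 167, 52.7 and 75.1 FPKM on Ta0 and 69.5, 27.8 and 119 FPKM on Ta3, against 70.8, 97.9 and 37.0 FPKM on cpTi. The groups overlapped throughout. On the log2 scale, Psmb8 differed from cpTi by 0.45 ± 0.62 on Ta0 (interval -0.98 to 1.87) and -0.05 ± 0.62 on Ta3 (interval -1.47 to 1.38).

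Psmb10, the inducible trypsin-like subunit, had 205, 59.8 and 90.9 FPKM on Ta0 and 82.4, 33.9 and 153 FPKM on Ta3, against 76.9, 112 and 48.4 FPKM on cpTi. Highest and lowest library were those of Psmb8, and no material stood apart. Psmb10 gave a log2 fold change of 0.47 ± 0.63 on Ta0 (interval -0.97 to 1.91) and 0.02 ± 0.63 on Ta3, over cpTi.

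Psmb9, the inducible partner in the caspase-like position, had 28.2, 11.8 and 17.9 FPKM on Ta0 and 14.7, 6.43 and 23.3 FPKM on Ta3, against 18.7, 26.1 and 9.92 FPKM on cpTi. It overlapped between all materials too in deposited FPKM. With a common FPKM total, Psmb9 was lower in every Ta3 library than in every cpTi library, beside 4.33% of all genes. The log2 fold change was 0.09 ± 0.51 on Ta0 and -0.35 ± 0.51 on Ta3, over cpTi (adjusted p = 0.950 and 0.958, limma). With the length slope as a covariate it was called lower on Ta3 (-0.54 ± 0.13, limma adjusted p = 0.0409) and on both glasses (-0.55 ± 0.11, adjusted p = 0.0247). That setting called 583 of all 10858 genes on Ta3 and 476 on both glasses, against 52 and 79 in the main fit.

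A measure of library composition moved with these genes. Reads in 76 cytosolic ribosomal protein genes, which are short and abundant, made up 17.9%, 6.98% and 10.04% of a library on Ta0 and 9.49%, 2.14% and 16.5% on Ta3, against 5.07%, 7.23% and 3.52% on cpTi. Ta0 replicate 1 and Ta3 replicate 3 stood highest, and Ta3 replicate 2 and cpTi replicate 3 lowest. B2m, Psmb8, Psmb9 and Psmb10 were likewise lowest in Ta3 replicate 2 and next lowest in cpTi replicate 3, and their 3 highest libraries were Ta0 replicate 1, Ta3 replicate 3 and cpTi replicate 2. Tapbp ran the other way, with its highest values in Ta3 replicate 2 and cpTi replicate 3. Across the 9 libraries the Pearson correlation on log2(FPKM + 1) was 0.99 for B2m with Psmb9, 0.994 for Psmb8 with Psmb10, 0.8 for Tap1 with Nlrc5 and -0.805 for Tapbp with Psmb8. These are descriptions over libraries that also share depth and composition, and the part of that composition in the differences between materials was not tested.

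**Figure D3:**
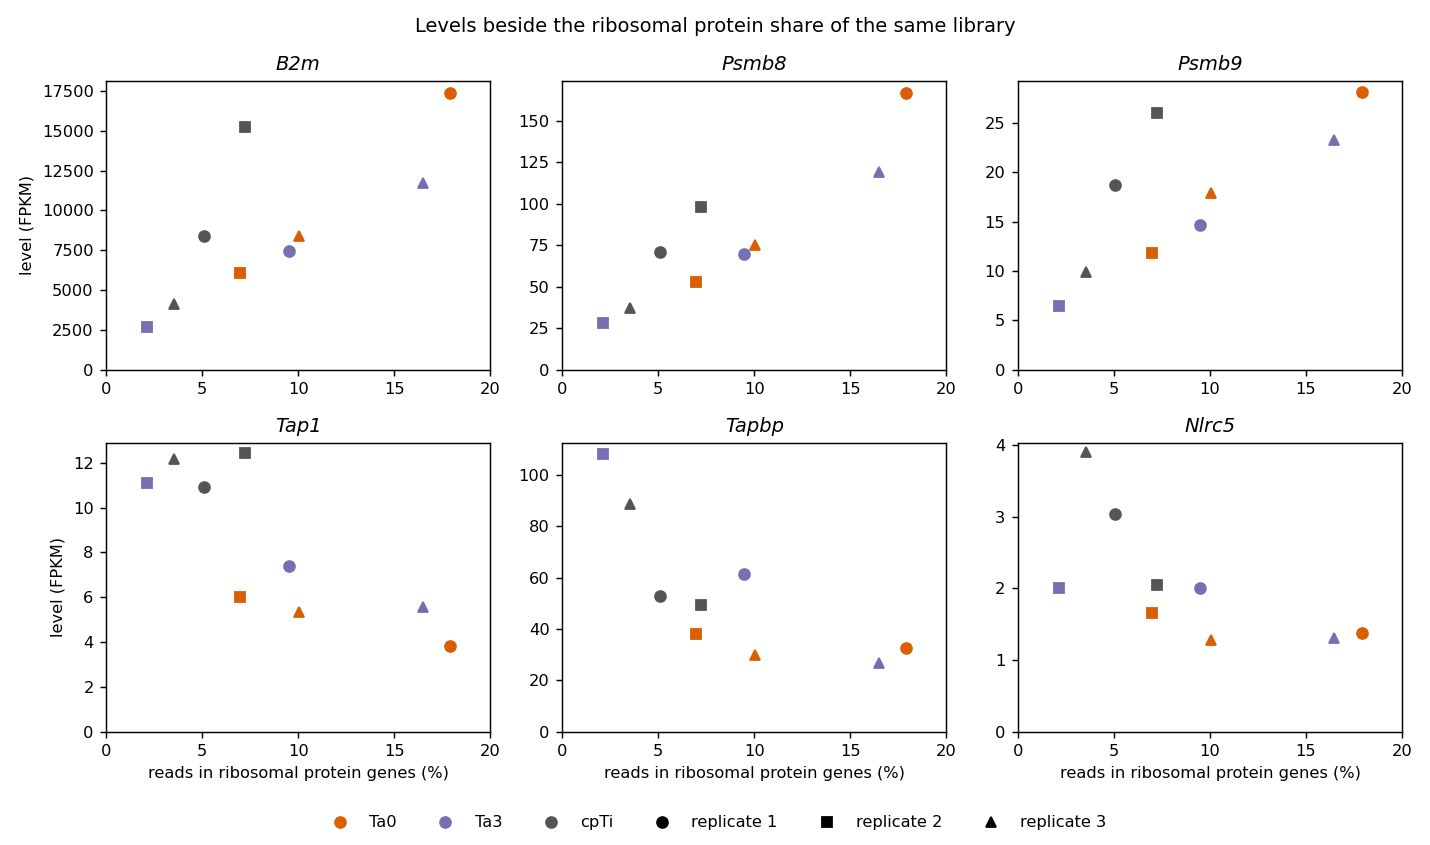
Level in FPKM (linear axis from 0) of 6 genes against the ribosomal protein share of reads (%) in the same library, 1 point per library, coloured by material and shaped by replicate. In deposited FPKM, B2m, Psmb8 and Psmb9 were highest in Ta0 replicate 1, at 17.9%, and lowest in Ta3 replicate 2, at 2.14%, while Tapbp was highest in Ta3 replicate 2.

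A ratio of 2 genes within a library does not depend on how libraries were scaled. Each inducible subunit was therefore divided by the constitutive subunit it replaces, as a ratio of FPKM, and tested by an exact two-sided permutation test over libraries. The paired genes differ in length, with 3659 bases for Psmb9 and 1872 for Psmb6. Psmb8 has 2736 and Psmb5 899, and Psmb10 has 1705 and Psmb7 3421. Library slopes on gene length ran from -0.234 to 0.266, and their part in the ratios was not tested. Reads in the overlap of Psmb9 with Tap1 could also enter. Psmb9 to Psmb6 was 0.0528, 0.0459 and 0.0524 on Ta0 and 0.0557, 0.0486 and 0.0319 on Ta3, against 0.0946, 0.0909 and 0.0714 on cpTi. All 6 glass libraries lay below all 3 cpTi libraries. The log2 difference from cpTi was -0.76 on Ta0 and -0.94 on Ta3, with an exact p of 0.1 each, the smallest that 3 against 3 allows. For both glasses it was -0.85 with an exact p of 0.0238, the smallest that 6 against 3 allows. After Benjamini-Hochberg adjustment over the 12 ratio tests that p was 0.2, so it failed the correction. Leaving out cpTi replicate 1, 2 or 3 in turn gave an exact p of 0.0714, the smallest that 6 against 2 allows.

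The levels behind that ratio were as follows. Psmb6 had 533, 257 and 341 FPKM on Ta0 and 263, 132 and 729 FPKM on Ta3, against 197, 287 and 139 FPKM on cpTi. Its log2 fold change for both glasses was 0.71 ± 0.54 (limma adjusted p = 0.844), and that of Psmb9 was -0.13 ± 0.44. Neither gene passed the test alone.

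Psmb8 to Psmb5 was 0.231, 0.203 and 0.188 on Ta0 and 0.233, 0.199 and 0.155 on Ta3, against 0.287, 0.235 and 0.229 on cpTi. The groups overlapped slightly, since the highest glass libraries exceeded the lowest cpTi library. The log2 difference for both glasses was -0.32 (exact p = 0.0714, adjusted over 12 tests 0.2). Psmb10 to Psmb7 was 1.63, 1.44 and 1.44 on Ta0 and 1.64, 1.77 and 1.70 on Ta3, against 1.70, 1.76 and 2.31 on cpTi. Ta0 lay below cpTi in every library and Ta3 overlapped with it, and the log2 difference for both glasses was -0.25 (exact p = 0.119, adjusted 0.204). Between Ta3 and Ta0 the log2 differences were -0.19 for Psmb9 to Psmb6, -0.10 for Psmb8 to Psmb5 and 0.18 for Psmb10 to Psmb7, with exact p of 0.7, 0.7 and 0.1.

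**Figure D4:**
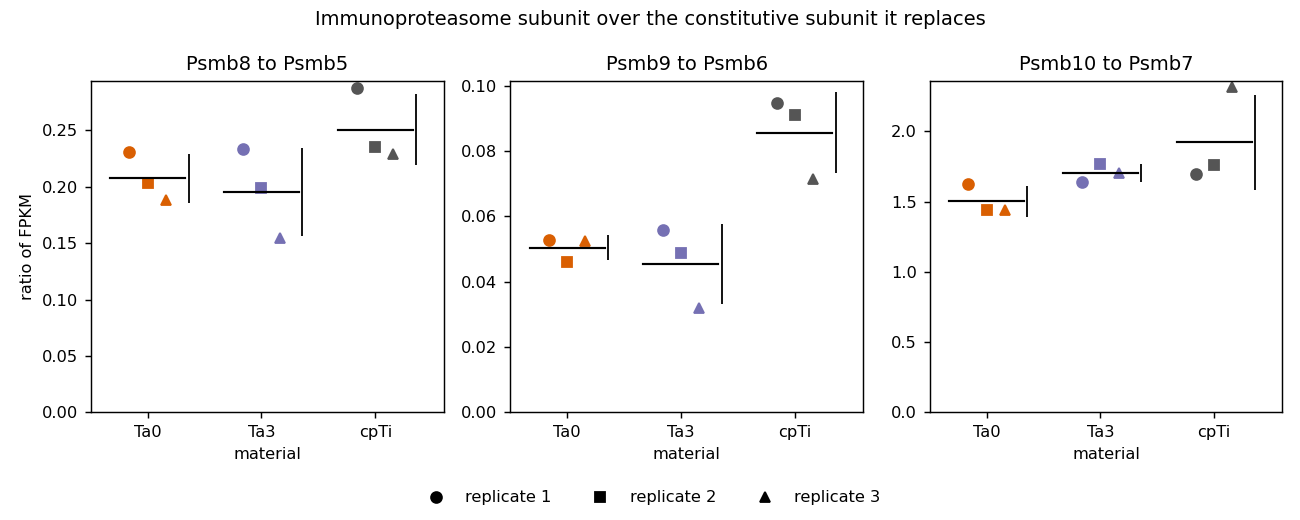
Ratio of FPKM of each inducible proteasome subunit to the constitutive subunit it replaces (linear axis from 0), in the 3 libraries of Ta0, Ta3 and cpTi, with group means as horizontal lines and 1 SD to each side as vertical lines. Psmb9 to Psmb6 was at most 0.0557 in glass libraries and at least 0.0714 in cpTi libraries.

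Other genes of the pathway were read from the same fit. Among 14 further class I and class I-like heavy chains, 11 passed the filter, and 1 of these was called lower in each comparison of a glass with cpTi, with none higher. Of all tested genes, 0.424% were called on Ta0, 0.479% on Ta3 and 0.728% on both glasses, in both directions. By unadjusted limma p under 0.05 the counts were 5, 6 and 5 of 11, beside 5.5%, 6.99% and 6.53% of all genes. The called gene was H2-M2, a nonclassical heavy chain, with 1.14, 1.55 and 1.74 FPKM on Ta0 and 0.872, 0.956 and 3.17 FPKM on Ta3, against 14.0, 21.8 and 7.62 FPKM on cpTi. Every cpTi library exceeded every glass library. H2-M2 fell on Ta0 by 2.54 on the log2 scale (SE 0.40, limma adjusted p = 0.0461), on Ta3 by 2.53 (adjusted p = 0.0435) and on both glasses by 2.54 (SE 0.35, adjusted p = 0.0178), against cpTi. These calls were lost under 14 of 18 alternatives for H2-M2 on Ta0, 13 of 18 on Ta3 and 8 of 17 on both glasses, while the log2 fold change stayed between -3.41 and -2.19. Without cpTi replicate 1 the adjusted p was 0.276 on Ta0, 0.279 on Ta3 and 0.151 on both glasses.

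The median log2 fold change of those 11 heavy chains was -0.47 on Ta0, -0.60 on Ta3 and -0.53 on both glasses, over cpTi, and 10 of 11 lay below 0 in each case. Of all tested genes, 50.14%, 47.35% and 47.98% lay below 0. These comparisons share the cpTi libraries, so they are not independent. H2-Q6 and H2-Q7, of the Qa-2 family, had the next largest differences for both glasses, -1.21 ± 0.36 and -0.99 ± 0.37 (limma adjusted p = 0.343 and 0.610). Without cpTi replicate 2 these were -0.78 for H2-Q6 and -0.60 for H2-Q7. With the length covariate limma called H2-Q7 lower on both glasses (-1.32, adjusted p = 0.0029), on Ta0 and on Ta3. That setting called 476, 246 and 583 of all 10858 genes in these comparisons. H2-Q6 and H2-Q7 are near copies of each other, between which reads could be split. The most abundant was H2-T23, which encodes Qa-1, a ligand of NK cell receptors. It had 317, 214 and 246 FPKM on Ta0 and 212, 172 and 387 FPKM on Ta3, against 207, 284 and 146 FPKM on cpTi, so the groups overlapped.

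None of 5 other loading genes (Calr, Canx, Pdia3, Erap1 and Tapbpl) was called as fitted here, and their median log2 fold change for both glasses was -0.04. The length covariate called 2 of 5 on Ta3 and 2 of 5 on both glasses. That setting called 583 of all 10858 genes on Ta3 and 476 on both glasses, against 52 and 79 in the main fit. Erap1, the aminopeptidase that trims peptides in the endoplasmic reticulum, had 8.97, 9.76 and 11.1 FPKM on Ta0 and 8.43, 10.03 and 8.09 FPKM on Ta3, against 13.7, 15.2 and 14.0 FPKM on cpTi. All glass libraries lay below all cpTi libraries, with a log2 fold change of -0.57 ± 0.13 for both glasses (limma adjusted p = 0.158, and 0.0208 with the length covariate). Calr, the chaperone calreticulin, averaged 104 ± 10.8 FPKM on Ta0 and 147 ± 51.6 FPKM on Ta3, against 94.7 ± 24.7 FPKM on cpTi (SD, n = 3 each).

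The constitutive catalytic subunits, proteasome activators and the assembly factor Pomp (8 genes) had a median log2 fold change of 0.65 on Ta0, 0.08 on Ta3 and 0.30 on both glasses, over cpTi, with 0 called by limma. The 11 shared subunits of the 20S core had medians of 0.67, 0.05 and 0.34, with 0 called. At an unadjusted p under 0.05 the count was 0 as well in both lists and all comparisons. Psmb5 and Psmb6 were the most abundant of the 8, and Psmb5 averaged 460 ± 238 FPKM on Ta0 and 403 ± 328 FPKM on Ta3, against 275 ± 130 FPKM on cpTi (SD, n = 3 each).

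Of 16 interferon and class I regulators, 13 were tested and 0 were called by limma, with 5, 3 and 5 at an unadjusted p under 0.05 on Ta0, Ta3 and both glasses. Of all tested genes, 5.5%, 6.99% and 6.53% reached that p in these comparisons. The medians of the 13 regulators were -0.38, -0.15 and -0.15 over cpTi. Irf1, a transcription factor that interferon gamma induces and that drives Tap1 and Psmb9, had 9.67, 9.73 and 8.79 FPKM on Ta0 and 9.54, 12.1 and 9.75 FPKM on Ta3, against 17.3, 19.1 and 15.6 FPKM on cpTi. All glass libraries lay below all cpTi libraries, and the log2 fold change for both glasses was -0.75 ± 0.14 (interval -1.06 to -0.44, limma adjusted p = 0.0564). The adjusted p for Irf1 was 0.0452 without Ta3 replicate 2 and 0.0062 with the length covariate, but 0.435 without cpTi replicate 1, 0.377 without cpTi replicate 2 and 0.138 without cpTi replicate 3. With the length covariate, 1 of the 13 regulators was called on Ta0, 2 on Ta3 and 5 on both glasses. That setting called 246, 583 and 476 of all 10858 genes in these comparisons.

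Stat2, which carries type I interferon signals, overlapped between Ta3 and cpTi, and its log2 fold change for both glasses was -0.88 ± 0.31 (limma adjusted p = 0.552). The interferon genes themselves were close to undetected, with 0 or 1 reads per library for Ifnb1 and 0 to 4 for Ifng. The receptor chain Ifngr1 averaged 45.0 ± 1.74 FPKM on Ta0 and 40.6 ± 4.69 FPKM on Ta3, against 42.1 ± 2.91 FPKM on cpTi (SD, n = 3 each).

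The genes whose pattern over the 9 libraries was most like that of a member differed between members. For Nlrc5 they were Ddx58, which encodes the RNA sensor RIG-I (Pearson r = 0.966 on log2(FPKM + 1)), Ppp1r12b (0.957) and Abcc1 (0.956), and 57 genes exceeded 0.9. For Psmb9 they were Cyb5a (0.993), Hikeshi (0.989) and 2410004B18Rik (0.987), and 704 genes exceeded 0.9. For H2-K1 they were Mrpl37 (0.920), Procr (0.895) and Eid2b (0.894), and only 1 gene exceeded 0.9. Ddx58 had 2.06, 2.24 and 2.15 FPKM on Ta0 and 2.64, 2.99 and 1.86 FPKM on Ta3, against 3.61, 3.30 and 5.28 FPKM on cpTi.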

How the data were processed

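RNA was isolated by TRIzol and polyA libraries came from a NEBNext Ultra kit, per the labels' protocols. The authors deposited 1 table of FPKM for 54532 genes and 9 libraries, all of which were used. The submitters' processing notes name CASAVA 1.8, fastp, HISAT2 2.0.5, featureCounts 1.5.0-p3, DESeq2 1.20.0 and the build GRCm38 (mm10), without roles. FPKM times gene length gave whole reads within 0.05 for 100% of values, from 15517877 to 18689963 reads per library. The library scale behind the FPKM differed from those totals, so a scaling to total reads was added after the data were seen.

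The 10858 genes that reached 1 FPKM in 3 or more libraries were fitted as log2(FPKM + 1) by limma 3.58.1 in R 4.3.3, with 3 group means, a mean-variance trend, two-sided tests and Benjamini-Hochberg adjustment, and were called at an adjusted p under 0.05. A fold change on this scale understates that of low genes. Both glasses means the average of the Ta0 and Ta3 group means against cpTi. The fit was also run on simulated reads, for both glasses against cpTi only. Those simulated libraries did not differ in composition, so the run does not show how the fit performs on libraries that vary as these do. Subunit ratios were compared by exact permutation tests in scipy 1.17.1.

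The members and lists were chosen with earlier results of these data known. Values are given for all 10 members, and, in each further list, for called genes and for some of the 3 most abundant and the 3 with the largest difference for both glasses. Genes most like Nlrc5, Psmb9 and H2-K1 were the 3 protein-coding non-members with the highest Pearson correlation. The alternatives were pseudocount 0.1, no filter, a common FPKM total, only the compared groups, a replicate block, a gene length covariate, voom with TMM factors, and libraries left out.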

Additional observations from a re-analysis of the deposited data

How the results depend on the processing

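None of the 10 genes was called by limma under any alternative except the length covariate, which called 1 of 10 on Ta0 (Tap1), 1 on Ta3 (Psmb9) and 2 on both glasses (both of these), against cpTi. H2-K1 on Ta0, Tap1, Tap2, Nlrc5 in each comparison and Tapbp on Ta0 kept their direction under every alternative run, the last from -1.47 to -0.32 and Tap1 on Ta0 from -1.62 to -0.85. A common FPKM total moved the median of all genes by -0.48 on Ta0 and -0.28 on both glasses, and scaling to total reads, chosen after seeing the data, by -0.29 and -0.21. For Ta0 over cpTi, 46 genes were called as reported, but 27 with a pseudocount of 0.1, 28 with no filter on level, 11 with a common FPKM total, 246 with the length covariate, 29 with voom, 20 with both of Ta0 replicate 1 and Ta3 replicate 3 left out and 22 with scaling to total reads, and 7 to 83 when each library was left out. For Ta3 over cpTi, 52 genes were called as reported, but 29 with a pseudocount of 0.1, 21 with no filter on level, 11 with a common FPKM total, 7 with only the compared groups, 583 with the length covariate, 29 with voom, 18 with both of Ta0 replicate 1 and Ta3 replicate 3 left out and 32 with scaling to total reads, and 7 to 33 when each library was left out. For both glasses over cpTi, 79 genes were called as reported, but 46 with no filter on level, 16 with a common FPKM total and 476 with the length covariate, and 10 to 101 when each library was left out.

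With a common FPKM total, these log2 fold changes turned sign, for Ta0 over cpTi H2-D1 -0.53, B2m -0.37, Psmb8 -0.16, Psmb9 -0.49 and Psmb10 -0.14, for Ta3 over cpTi Psmb10 -0.14, for both glasses over cpTi H2-D1 -0.25, Psmb8 -0.18 and Psmb10 -0.14, for Ta3 over Ta0 Psmb10 0.0035. With the length covariate these turned sign, for Ta0 over cpTi H2-D1 -0.13, B2m -0.61, Psmb8 -0.36, Psmb9 -0.57 and Psmb10 -0.34, for Ta3 over cpTi Tapbp 0.034 and Psmb10 -0.22, for both glasses over cpTi H2-D1 -0.011, Psmb8 -0.32 and Psmb10 -0.28, for Ta3 over Ta0 Psmb8 0.078, Psmb9 0.032 and Psmb10 0.13. With scaling to total reads these turned sign, for Ta0 over cpTi H2-D1 -0.29, B2m -0.13 and Psmb9 -0.26, for Ta3 over cpTi H2-D1 -0.052 and Psmb10 -0.21, for both glasses over cpTi H2-D1 -0.17, Psmb8 -0.099 and Psmb10 -0.057. With both of Ta0 replicate 1 and Ta3 replicate 3 left out these turned sign, for Ta0 over cpTi B2m -0.18, Psmb8 -0.016, Psmb9 -0.21 and Psmb10 -0.018, for Ta3 over cpTi H2-D1 -0.025, Tapbp 0.40 and Psmb10 -0.49, for both glasses over cpTi H2-D1 -0.0053, Psmb8 -0.27 and Psmb10 -0.25, for Ta3 over Ta0 H2-D1 -0.039. Leaving out each library in turn, the log2 fold change for Ta0 over cpTi ran from -0.091 to 0.28 for H2-D1, -0.24 to 0.71 for B2m, -0.016 to 0.81 for Psmb8, -0.27 to 0.39 for Psmb9 and -0.018 to 0.86 for Psmb10. For Ta3 over cpTi it ran from -0.31 to 0.012 for H2-K1, -0.025 to 0.37 for H2-D1, -0.87 to 0.21 for B2m, -0.59 to 0.40 for Tapbp, -0.52 to 0.51 for Psmb8, -0.74 to 0.12 for Psmb9 and -0.49 to 0.58 for Psmb10. For both glasses over cpTi it ran from -0.048 to 0.32 for H2-D1, -0.56 to 0.39 for B2m, -0.18 to 0.51 for Psmb8, -0.49 to 0.17 for Psmb9 and -0.065 to 0.53 for Psmb10. For Ta3 over Ta0 it ran from -0.12 to 0.23 for H2-D1, -0.97 to 0.063 for Psmb8, -0.83 to 0.023 for Psmb9 and -0.96 to 0.11 for Psmb10.

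The count of genes lower in every Ta0 library than in every cpTi library was 5 with a common FPKM total (12.2% of all genes) and with scaling to total reads (11.8%). H2-K1 was the gene added. With a library left out that count was 4 to 5 (11.5% to 21.4%). The count of genes lower in every Ta3 library than in every cpTi library was 1 with a common FPKM total (4.33%), and that gene was Psmb9. It was 0 with scaling to total reads (10.7% of all genes) and 1 to 2 with a library left out (8.92% to 15.3%). For both glasses it was 0 with a common FPKM total (2.44%) and with scaling to total reads (5.2%), and 1 to 2 with a library left out (3.85% to 7.29%). The count of genes higher in every Ta3 library than in every Ta0 library was 0 with those scalings (1.86% and 1.21%), 4 with Ta0 replicate 1 and Ta3 replicate 3 left out (29.4%), and 1 to 4 with a single library left out (4.68% to 26.2%). Fewer libraries overlap less often by construction. For both glasses over cpTi, the log2 difference of Psmb9 to Psmb6 was -0.75 without Ta0 replicate 1 and Ta3 replicate 3 (exact p = 0.0571, the smallest possible) and -0.98 to -0.74 with a library left out. That of Psmb8 to Psmb5 was -0.32 with 1 FPKM added to both (exact p = 0.0476). For Ta3 over Ta0, without those libraries, Psmb8 to Psmb5 was 0.14 and Psmb9 to Psmb6 0.086, and with 1 library left out they ran from -0.24 to 0.057 and from -0.35 to 0.050.

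Shared replicate numbers were not read as pairs, since the labels do not say that a number marks a shared animal or day. Deviations of same-numbered libraries correlated from -0.82 to 0.85. These cannot decide whether libraries were paired, because library composition and scale enter them as well. With a replicate block, 4 genes were called on Ta0, 4 on Ta3 and 14 on both glasses, against cpTi, and 0 of the 10. Fitting only the compared groups gives no other value for both glasses. The causes of these shifts were not tested. Nlrc5, Tap1 and Tap2 rest on the fewest reads, down to 106, 190 and 194 in a library. With the replicate block the adjusted p of H2-M2 was 0.224 on Ta0, 0.238 on Ta3 and 0.111 on both glasses.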
